A study of Mus musculus with 20 samples.

Results

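The 8 genes followed here serve the sensing of 3 signals that condition gut leukocytes, and of Notch: the TGF-beta receptors Tgfbr1 and Tgfbr2 with the signal transducers Smad3 and Smad7, the IL-10 receptor chains Il10ra and Il10rb, the aryl hydrocarbon receptor Ahr, and the repressor Hes1. They were taken by gene symbol, and each of the 8 had 1 entry in both deposited tables, among 50600 gene names in each. Eosinophils and macrophages had been sorted by flow cytometry from digested colons of C57BL/6 mice, and their polyadenylated RNA was read near its 3′ end by CEL-Seq. There were 7 libraries of tumor eosinophils and 2 of naive eosinophils, then 6 of tumor macrophages and 5 of naive macrophages. Tumor libraries came from wild-type mice that carried colonic tumors after the induction called CAC in the labels, with the disease state CAC, and naive libraries from wild-type mice with the disease state control. The labels do not state the agents and length of the induction, the age of the mice, the sorting markers or whether each library came from a separate mouse, so that the p-values measure the spread between these libraries, which may be partly technical.

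TGF-beta binds the type II receptor TGFBR2, which recruits and phosphorylates the type I receptor TGFBR1; this kinase activates SMAD3, and SMAD7 is an induced inhibitor of the receptor complex. IL-10 binds the chain IL10RA, which pairs with IL10RB, a chain shared with other cytokine receptors, and signals mainly through STAT3; in the mouse gut this receptor keeps resident macrophages from inflammatory activation. AHR is a transcription factor activated by dietary, microbial and tryptophan-derived ligands; it pairs with ARNT and induces its own repressor AHRR and enzymes that clear its ligands, and it has been reported to shape intestinal eosinophils in mice. HES1 is a transcriptional repressor and a classical target of Notch receptors, which act through the DNA-binding protein RBPJ, although other signals also induce it.

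The libraries held 1477255 to 8520874 reads. Each sort carried its own markers: macrophage markers summed to 808 to 1422 CPM, the share of reads scaled to a common library size, in tumor eosinophils, 788 and 940 CPM in naive eosinophils, and 18364 to 31646 CPM over all macrophage libraries. Eosinophil markers summed to 803 to 9675 CPM in tumor eosinophils, 1746 and 2420 CPM in naive eosinophils, and 7.99 to 70.9 CPM over all macrophage libraries. Within the eosinophil list, the receptor gene Ccr3 had 154 to 351 CPM in tumor eosinophils, against 603 and 773 CPM in naive eosinophils, while the granule peroxidase Epx was near 0 in both naive libraries (0.803 and 1.35 CPM). Siglecf, Il5ra and Alox15 also lay below both naive libraries in every tumor library, while Prg2, Prg3 and Ear6 lay above them. Epx, Ear1 and Ear2 overlapped, with Epx at 0 to 235 CPM in tumor eosinophils. Of the 10 eosinophil markers tested, 0 were called higher and 3 lower in tumor eosinophils, with a median log2 change of 1.97. Tumor eosinophil library 4 held the highest eosinophil sum. Neutrophil markers, mostly Retnlg, summed to 4774 to 14463 CPM in tumor eosinophils and to 6329 and 11459 CPM in naive eosinophils, yet 5 of the 10 tested were called higher in tumor eosinophils (median log2 change 3.57), and S100a9 had 106 to 603 CPM there, against 11.5 and 18.6 CPM in naive eosinophils. Of the 9 macrophage markers that could be tested there, tumor eosinophils had 3 called higher and 1 called lower. In macrophages the neutrophil sums were 127 to 828.6 CPM in tumors, against 36.5 to 56.9 CPM in naive colon, with 5 of 8 tested called higher, and 6 of 8 dendritic cell markers were called lower in tumors (median log2 change −1.58). The dendritic cell sums were 108 to 292 CPM in tumor macrophages, against 95.4 to 247 CPM in naive macrophages. Immunoglobulin-led B and plasma cell markers reached 17543 CPM in tumor eosinophils, 7534 CPM in naive eosinophils, 72275 CPM in tumor macrophages and 75490 CPM in naive macrophages. Mitochondrial transcripts made up 15.2 to 35.2% of reads in tumor eosinophils, 17.9 and 24.5% in naive eosinophils, 8.23 to 10.4% in tumor macrophages and 8.28 to 15.9% in naive macrophages. Over all genes tested, 2.42% were called higher and 2.21% lower in tumor eosinophils, and 8.49% higher and 8.61% lower in tumor macrophages. The part of other cell types in the values below was not tested, and fewer cells of a type within a sort cannot be told apart from less RNA per cell.

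Ahr was lower in tumors in both cell types, Hes1 was lower in tumor eosinophils, and no sensor was called higher in tumors. In eosinophils 2 of the 8 genes fell and 6 did not pass the test, where 4.63% of the 12984 genes tested were called by limma at an adjusted p under 0.05 (2.42% higher and 2.21% lower). In macrophages 1 of the 8 fell and 7 did not pass, where 17.1% of the 11536 genes tested were called (8.49% higher and 8.61% lower). The median log2 change of the 8 genes was −0.01 in eosinophils, against 0.01 over all genes tested, and −0.03 in macrophages, against 0.02 over all genes. The log2 changes of the receptor and SMAD genes ran from −0.25 (Tgfbr2) to 0.26 (Tgfbr1) in eosinophils, with wide intervals, since the naive group had 2 libraries. In macrophages they ran from −0.44 (Il10ra) to 0.19 (Smad3), and the 95% interval of Il10ra, −0.78 to −0.11, lay below 0 although its adjusted p missed the threshold. With naive eosinophil library 2 left out, the remaining naive library was assumed to vary like the other groups and 90 genes were called in eosinophils, against 601 with it; of the 13 genes named here that were called in eosinophils, all 13 then missed the threshold, their adjusted p lying between 0.0542 and 0.543. With naive library 1 left out, 4 of the 13 missed it, Hes1, Dtx3, Ido1 and Itgb8. With limma-voom 10 of the 13 missed it, all but Notch1, Tiparp and Zfp36.

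**Figure D1:**
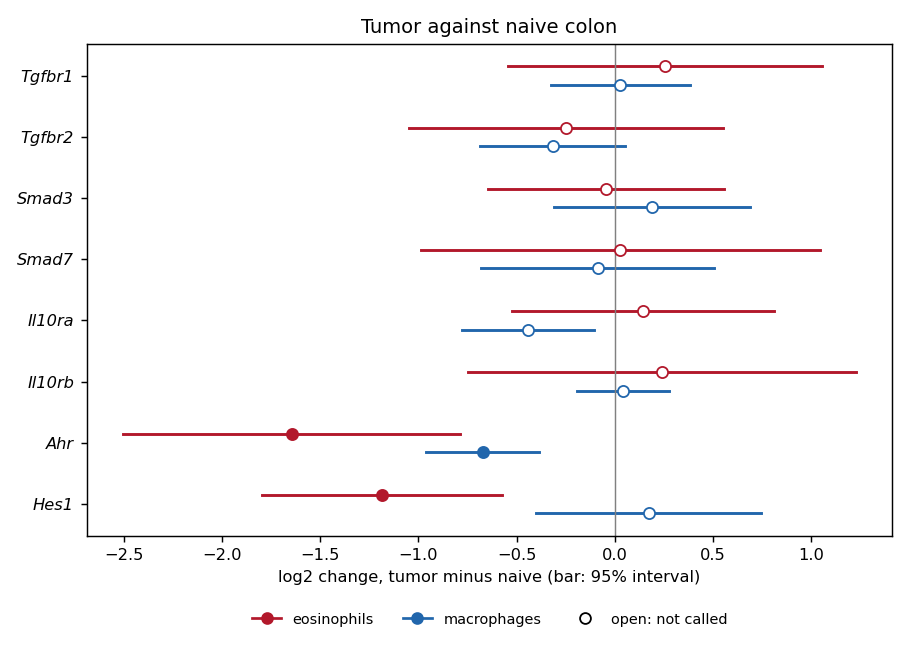
Log2 change of each sensor gene, tumor minus naive, in eosinophils (red, 7 against 2 libraries) and macrophages (blue, 6 against 5 libraries); points are limma estimates on log2(normalised reads + 1), bars are 95% intervals, and filled points passed an adjusted p of 0.05. Filled points are Ahr in both cell types and Hes1 in eosinophils, all left of 0, and the eosinophil bars are the wider ones.

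Ahr (chr12:35497974-35535038, minus strand, GRCm38) fell in tumor eosinophils. The 7 tumor libraries held 336, 514, 513, 737, 635, 772 and 461 normalised reads, that is the authors' read counts divided by a size factor per library, against 1033 and 2847 in the 2 naive libraries. Every tumor library lay below both naive libraries, and the naive libraries were far apart. The means were 567 ± 156 normalised reads in tumor eosinophils (SD, n = 7) and 1940 in naive eosinophils, and the log2 change was −1.65 ± 0.40 (SE; adjusted p = 0.0338, limma). That call rested on naive library 2: without it the log2 change was −0.91 (adjusted p = 0.487). It also ended, with a change of −1.53 to −1.69, without tumor library 1, 3 or 7, without the filter on low values and with limma-voom (adjusted p between 0.0514 and 0.0686).

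Ahr fell in tumor macrophages as well. Their 6 libraries held 140, 163, 167, 135, 180 and 202 normalised reads, against 234, 281, 251, 249 and 291 in naive macrophages, and the groups did not overlap. The means were 165 ± 24.9 normalised reads in tumor macrophages (SD, n = 6) and 261 ± 24.1 in naive macrophages (SD, n = 5), a log2 change of −0.67 ± 0.13 (SE; adjusted p = 0.00274, limma). The macrophage call held in every alternative tried, with adjusted p-values of 5.13e-05 to 0.0107. The eosinophil effect minus the macrophage effect was −1.08 ± 0.36 on the log2 scale, which did not pass the test of the difference (SE; adjusted p = 0.0986, limma). Leaving out naive eosinophil library 1 brought the difference to −1.74, and leaving out naive eosinophil library 2 brought it to −0.42. The replicate block called the difference (adjusted p = 0.0476, limma). That block takes its effect only from numbers that both groups hold, in eosinophils tumor and naive libraries 1 and 2. An exon of Ahr overlaps one of Gm48236 on the other strand, and the labels do not say whether counting used the strand, so that some of these reads could belong to either gene.

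Of the other genes of the AHR pathway, 1 rose, 1 fell and 13 did not pass the test among the 15 tested in eosinophils. In macrophages 3 rose, 2 fell and 9 did not pass among the 14 tested. The median log2 change was −0.31 in eosinophils and −0.08 in macrophages. Over all genes tested it was 0.01 and 0.02, and 4.63% and 17.1% of them were called. The feedback genes Ahrr and Tiparp were each called in 1 cell type. Ahrr, the AHR repressor, fell in tumor macrophages to 9.41 to 31.8 normalised reads, against 112 to 218 in naive macrophages, a log2 change of −2.96 ± 0.29 (SE; adjusted p = 6.61e-06, limma). In eosinophils Ahrr did not pass, with 11.2 to 34.1 normalised reads in 6 tumor libraries and 189 in tumor library 6, against 47.6 and 56.8 in naive eosinophils (−0.77 ± 0.79, SE; adjusted p = 0.631; −1.21 without tumor library 6, adjusted p = 0.193). Tiparp, which encodes an ADP-ribosyltransferase that AHR induces and that represses AHR, fell in tumor eosinophils to 85.3 to 219 normalised reads, against 597 and 724 in naive eosinophils (−2.11 ± 0.34, SE; adjusted p = 0.0054, limma). In macrophages Tiparp had 126 to 389 normalised reads in tumors, against 235 to 509 in naive colon, and did not pass (−0.35 ± 0.29, SE; adjusted p = 0.469). The Tiparp effects differed between the cell types by −1.88 ± 0.50 (SE; adjusted p = 0.0358, limma), a call that ended in 11 of the alternatives, among them the fits without either naive eosinophil library, with the replicate block and without the filter (adjusted p = 0.058 to 0.124). Those of Ahrr did not pass the same test (2.08 ± 0.79, SE; adjusted p = 0.146), although they did with the replicate block (adjusted p = 0.0186). That block gives tumor eosinophil library 6 no weight. The Tiparp fall in eosinophils had adjusted p-values of 2.09e-07 to 0.0542 over the alternatives, and only leaving out naive eosinophil library 2 ended it.

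Because Ahrr and Tiparp are feedback genes of the receptor and were called, Ahrr in macrophages and Tiparp in eosinophils, their 250 bases before the transcription start are shown from RefSeq (GRCm38.p6), written in the direction of the gene. Capitals mark the core that AHR and ARNT bind, GCGTG or its reverse complement CACGC.
Ahrr (chr13:74292332-74292581, minus strand): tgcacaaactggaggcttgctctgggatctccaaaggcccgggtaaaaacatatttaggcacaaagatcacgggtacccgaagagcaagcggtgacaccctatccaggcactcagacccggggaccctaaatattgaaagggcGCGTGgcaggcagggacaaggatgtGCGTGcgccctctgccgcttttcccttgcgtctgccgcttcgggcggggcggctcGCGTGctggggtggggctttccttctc
Tiparp (chr3:65528197-65528446, plus strand): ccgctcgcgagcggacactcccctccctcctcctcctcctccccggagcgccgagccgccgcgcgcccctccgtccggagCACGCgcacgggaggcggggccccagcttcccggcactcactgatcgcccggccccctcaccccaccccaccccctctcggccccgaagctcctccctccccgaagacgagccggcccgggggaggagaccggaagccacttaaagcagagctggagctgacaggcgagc
The Ahrr window held 3 matches, starting at positions −107, −82 and −27 from the start site, the Tiparp window 1, at −170, and the window of Cyp2s1, described next, held 0. Over all 32851 promoters of the table, 28.2% held at least 1 match on either strand, so that a match in these windows is common and is a description only.

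Cyp2s1, a cytochrome P450 that AHR induces, fell in tumor macrophages to 1.26 to 13.1 normalised reads, against 19.9 to 46.3 in naive macrophages (−2.04 ± 0.44, SE; adjusted p = 0.00492, limma). In eosinophils it had 0.86 to 21.4 normalised reads in tumors, against 65.0 and 37.4 in naive colon, with no overlap, and did not pass (−2.78 ± 0.79, SE; adjusted p = 0.0664). It did pass with a pseudocount of 5, DESeq2, the replicate block and without tumor library 3, its highest (adjusted p = 0.0188 to 0.0474). The block gives tumor library 3 no weight either. Cyp1b1, another AHR-induced cytochrome P450, had at most 8 reads in any library and was not tested. Ido1, the enzyme that opens the tryptophan ring on the way to kynurenine, a source of AHR ligands, moved the other way. It rose in tumor eosinophils to 10.3 to 66.7 normalised reads, against 1.16 and 4.83 in naive eosinophils (2.93 ± 0.73, SE; adjusted p = 0.0412, limma), a call that 11 of the alternatives ended, with adjusted p-values up to 0.477. In tumor macrophages it rose to 22.7 to 114 normalised reads, against 0 to 8.47 in naive macrophages (3.49 ± 0.53, SE; adjusted p = 0.00033, limma). The kinase gene Src (1.21) and the phospholipid-remodelling acyltransferase Lpcat2 (0.61) also rose in tumor macrophages on the log2 scale, the Lpcat2 call ending with the replicate block (adjusted p = 0.0808). Arnt, the partner of AHR, did not pass in either cell type: its log2 change was −0.31 ± 0.76 in eosinophils and 0.42 ± 0.14 in macrophages (SE; adjusted p = 0.86 and 0.0537; the macrophage change passed without tumor library 3, adjusted p = 0.0378).

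Hes1 (chr16:30064384-30067796, plus strand, GRCm38) fell in tumor eosinophils. The 7 tumor libraries held 384, 701, 633, 457, 496, 479.5 and 415 normalised reads, against 1132 and 1141 in naive eosinophils. Here the 2 naive libraries lay close together and above all tumor libraries. The means were 509 ± 116 normalised reads in tumor eosinophils (SD, n = 7) and 1137 ± 6.23 in naive eosinophils (SD, n = 2), a log2 change of −1.19 ± 0.28 (SE; adjusted p = 0.0323, limma). The change itself stayed between −1.27 and −1.09 in every alternative, while its adjusted p ran from 0.00175 with DESeq2 to 0.224 without naive library 2, and leaving out naive library 1 or tumor library 1, 4, 6 or 7 also took it past 0.05 (0.0531 to 0.0727), as did limma-voom (0.107), the replicate block (−1.13, 0.101) and the absence of a filter (0.0554).

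In macrophages Hes1 did not pass. The 6 tumor libraries held 301, 264, 750, 749, 360.3 and 329 normalised reads, against 391, 442, 349, 272 and 428 in naive macrophages. Tumor libraries 3 and 4 stood above all others and the remaining tumor libraries lay within or just below the naive range (log2 change 0.17 ± 0.27, SE; adjusted p = 0.716, limma). Libraries 3 and 4 were also the closest pair of tumor macrophage libraries. Their chi-square per degree of freedom, which grows as 2 libraries lie further apart, was 7.996. For the other tumor macrophage pairs it was 9.587 to 76.61. The labels do not state whether libraries 3 and 4 came from separate mice, and their independence was not tested. The same 2 libraries also held the most Smad7 of the tumor macrophages and more of 3 immediate-early and stress genes, chosen after their values were seen: Fos had 8080 and 8432 normalised reads in them, against 3563 to 4996 in the other tumor macrophages; Klf4 had 910.4 and 923, against 431 to 548; and Hspa1a, a heat-shock protein gene, 5714 and 6566, against 840.1 to 1959. In naive macrophages Fos had 8989 to 13945 normalised reads, Klf4 1159 to 1478 and Hspa1a 2575 to 8301.5, while Hes1 had 272 to 442. In eosinophils Fos had 935 to 1409 in tumors, against 4370 and 5158 in naive colon. The part of this response in the Hes1 values was not tested.

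For Hes1 the eosinophil effect minus the macrophage effect was −1.47 ± 0.43 on the log2 scale, which did not pass either (SE; adjusted p = 0.0539, limma). Of the 8 sensors, 0 passed this test of the difference by limma, where 3.91% of 15620 genes were called (1.79% higher and 2.11% lower in eosinophils); 2 of them, Ahr and Hes1, had an unadjusted p under 0.05, and edgeR called 1, Hes1 (−1.52, adjusted p = 0.0427). Hes1 also passed by limma without tumor eosinophil library 2 and without tumor macrophage library 1 or 2 (adjusted p = 0.0367 to 0.0414).

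Notch1 and the Deltex gene Dtx3 fell in tumors in both cell types, Maml1 was called lower in eosinophils, and Rbpj and Notch2 were called lower in macrophages. Of the Notch pathway list, which does not hold Hes1, 0 rose and 3 fell among 29 tested in eosinophils, with a median log2 change of −0.15. In macrophages 4 rose and 4 fell among 27 tested, with a median of 0.04. The called share over all genes tested was 4.63% in eosinophils and 17.1% in macrophages. Notch1 fell in tumor eosinophils to 107 to 251 normalised reads, against 599 and 703 in naive eosinophils (−2.01 ± 0.33, SE; adjusted p = 0.00632, limma). It fell in tumor macrophages to 59.4 to 112 normalised reads, against 124 to 180.1 in naive macrophages (−0.97 ± 0.17, SE; adjusted p = 0.00113, limma). The difference between these 2 changes did not pass (−1.15 ± 0.37, SE; adjusted p = 0.0804), although it did without tumor eosinophil library 5 (adjusted p = 0.0339). Notch1 therefore had no overlap between tumor and naive libraries in either cell type, and only the fit without naive eosinophil library 2 ended its eosinophil call (adjusted p = 0.0981).

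Rbpj, the DNA-binding partner of activated Notch, fell in tumor macrophages to 390.0 to 442 normalised reads, against 689 to 803 in naive macrophages (−0.84 ± 0.10, SE; adjusted p = 3.98e-05, limma). In eosinophils it had 212 to 325 normalised reads in 6 tumor libraries and 574 in tumor library 4, against 620 and 670.2 in naive eosinophils, and did not pass (−1.12 ± 0.35, SE; adjusted p = 0.0948). It did pass without tumor library 4 (−1.28, adjusted p = 0.0365) and with the replicate block (−1.36, adjusted p = 0.048). The block rests on tumor and naive libraries 1 and 2, so that it gives tumor library 4 no weight either. The Rbpj effects did not pass the test of the difference between the cell types (−0.39, adjusted p = 0.571). Maml1, a coactivator of the Notch complex, fell in tumor eosinophils to 69.3 to 123 normalised reads, against 165 and 389 in naive eosinophils (−1.42 ± 0.36, SE; adjusted p = 0.0462, limma), a call that ended in 10 of the alternatives, most of them single libraries left out (adjusted p up to 0.543). In macrophages Maml1 had 34.5 to 60.3 normalised reads in tumors, against 37.5 to 61.7 in naive colon, and the 2 effects differed (−1.68 ± 0.39, SE; adjusted p = 0.0169, limma). Dtx3, of the Deltex family of ubiquitin ligases, fell in both, by 1.61 on the log2 scale in eosinophils (adjusted p = 0.0223) and by 0.89 in macrophages (adjusted p = 0.00028). Notch2 fell in macrophages by 0.57 on the log2 scale (adjusted p = 0.0236) and had −0.67 ± 0.31 in eosinophils (SE; adjusted p = 0.249); its effects did not pass the test of the difference (−0.22, adjusted p = 0.772). The Notch2 call ended with the replicate block (adjusted p = 0.111) and without naive macrophage library 1 or 3 or tumor macrophage library 4 (0.051 to 0.0575). The ligand Jag1 (1.66) and the HES family member Hes6 (1.23) rose in tumor macrophages on the log2 scale.

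**Figure D2:**
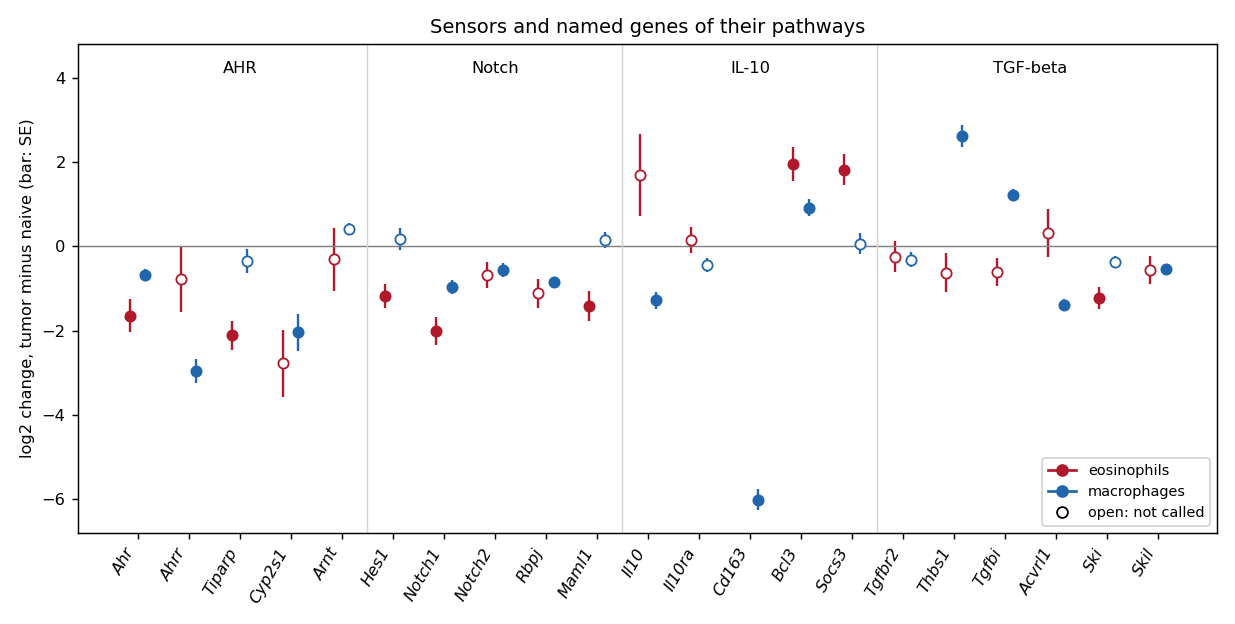
Log2 change, tumor minus naive, of Ahr, Hes1, Il10ra and Tgfbr2 beside genes of their pathways, in eosinophils (red) and macrophages (blue); points are limma estimates, bars are SE, open points did not pass an adjusted p of 0.05, and a missing red point (Cd163) marks a gene too low to test in eosinophils. Ahr, Notch1 and Bcl3 are filled in both cell types, Tiparp and Socs3 in eosinophils, and Ahrr, Il10, Thbs1 and Acvrl1 in macrophages.

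Neither IL-10 receptor chain was called in either cell type, while the ligand gene and several response genes were called in macrophages. Il10ra (chr9:45253837-45269149, minus strand, GRCm38), the ligand-binding chain, had 304, 336, 328, 388, 254 and 247 normalised reads in tumor macrophages, against 444, 402, 494, 464 and 304 in naive macrophages. The groups overlapped through naive library 5, the shallowest of all libraries, which had 100 reads of the gene. The log2 change was −0.44 ± 0.16 (SE; adjusted p = 0.0668, limma); it passed with DESeq2 (adjusted p = 0.0317), without naive macrophage library 5 (−0.56, adjusted p = 0.0219) and without tumor macrophage library 4 (−0.51, adjusted p = 0.0423). In eosinophils Il10ra had 117 to 204 normalised reads in tumors (median 148), against 157 and 115 in naive colon, and the 95% interval of its log2 change was −0.52 to 0.81. The difference of the Il10ra effects between cell types did not pass (0.48 ± 0.33, SE; adjusted p = 0.47).

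Il10rb (chr16:91406164-91425834, plus strand, GRCm38), the shared chain, spread widely among tumor eosinophils. They held 450.2, 736, 504, 1230.3, 1572, 1228 and 949 normalised reads, against 558 and 973 in naive eosinophils, a log2 change of 0.24 ± 0.46 (SE; adjusted p = 0.815, limma). Tumor libraries 1 to 3, the lowest of the tumor eosinophils, had epithelial marker sums of 3353 to 3985 CPM and 25.1 to 35.2% mitochondrial reads. Tumor libraries 4 to 7 had 1266 to 1873 CPM and 15.2 to 23.9%, and the naive libraries 1720 and 1230 CPM. The part of this split in the Il10rb values was not tested. In macrophages it stood at 859 ± 60.5 normalised reads in tumors (SD, n = 6) and 836 ± 83.4 in naive colon (SD, n = 5), a log2 change of 0.04 with a 95% interval of −0.19 to 0.28. Its exons are shared with Gm21970 on the same strand, so that the value of either entry is uncertain.

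Il10 itself fell in tumor macrophages to 322 to 725 normalised reads, against 828.6 to 1549 in naive macrophages (−1.28 ± 0.21, SE; adjusted p = 0.000552, limma). Eosinophils held few reads of it, 1 to 22 in tumor libraries and 6 and 0 in naive libraries, and it was not called there. Among the IL-10 pathway genes other than the 2 receptor chains, 2 rose, 1 fell and 16 did not pass among the 19 tested in eosinophils, with a median log2 change of 0.44. In macrophages 5 rose, 5 fell and 9 did not pass among the 19 tested, with a median of −0.13. The called share over all genes tested was 4.63% in eosinophils and 17.1% in macrophages. Bcl3, a nuclear IκB protein that IL-10 induces in macrophages, rose in tumor eosinophils to 112 to 257 normalised reads, against 29.0 and 74.8 in naive eosinophils (1.95 ± 0.40, SE; adjusted p = 0.0176, limma). It rose in tumor macrophages by 0.92 on the log2 scale (adjusted p = 0.00471). Socs3, a STAT3-induced inhibitor of cytokine receptors, rose in tumor eosinophils to 305 to 706 normalised reads, against 122 and 157 in naive eosinophils (1.82 ± 0.37, SE; adjusted p = 0.0168, limma). In macrophages it had 1241 to 2899 normalised reads in tumors and 1439 to 2802 in naive colon, and the difference of its effects did not pass (1.65 ± 0.48, SE; adjusted p = 0.0565), although it did in 4 of the alternatives (adjusted p = 0.0316 to 0.0432).

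The members of the IL-10 list that moved in macrophages did not share a direction. Cd163, a scavenger receptor of resident macrophages, fell to 1.75 to 3.59 normalised reads in tumor macrophages, 1 to 8 reads a library, against 178 to 345 in naive macrophages; the log2 change was −6.01 ± 0.25 (SE; adjusted p = 2.25e-09, limma) and, since it depends on the pseudocount at such low reads, ran from −6.48 to −4.89 over the alternatives. Zfp36, which encodes the mRNA decay factor tristetraprolin, fell in both cell types, by 1.43 on the log2 scale in eosinophils (adjusted p = 0.019) and by 0.76 in macrophages (adjusted p = 0.0405), where 11 alternatives ended the call with adjusted p-values up to 0.126. The repressor Etv3 fell in macrophages by 1.07 on the log2 scale (adjusted p = 0.000205). Il1rn, which encodes the IL-1 receptor antagonist, rose in tumor macrophages to 2799 to 7913 normalised reads, against 598 to 842 in naive macrophages (2.56 ± 0.26, SE; adjusted p = 8.31e-06, limma). The neutrophil marker sums given above were higher in the same tumor libraries, and their part in the Il1rn values was not tested. Nfil3 also rose in tumor macrophages, by 1.142 on the log2 scale.

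The 4 TGF-beta genes did not pass the test in either cell type. Tgfbr2 (chr9:116084293-116175360, minus strand, GRCm38), the ligand-binding receptor, had 124, 96.4, 112, 278, 166, 148 and 149 normalised reads in tumor eosinophils, against 169 and 176 in naive eosinophils. Of the tumor libraries, 6 lay below both naive libraries and library 4 above them, and the log2 change was −0.25 with a 95% interval of −1.05 to 0.55, or −0.40 without tumor library 4. In macrophages it had 124 to 245 normalised reads in tumors (median 190.5), against 194 to 290.3 in naive colon (median 226), a log2 change of −0.32 ± 0.17 (SE; adjusted p = 0.237, limma). Tgfbr1 (chr4:47353222-47414931, plus strand, GRCm38), the type I receptor, had 88.9 to 210.5 normalised reads in tumor eosinophils (median 135), against 93.4 and 144 in naive eosinophils (log2 change 0.26, 95% interval −0.54 to 1.06). In macrophages Tgfbr1 had 334 to 481 normalised reads in tumors (median 442), against 485, 447, 429.8, 479 and 264 in naive colon, a log2 change of 0.03 with a 95% interval of −0.33 to 0.38. The receptor estimates thus leave room for changes of up to about 1 log2 unit in eosinophils and for smaller ones in macrophages.

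Smad3 (chr9:63646767-63757994, minus strand, GRCm38) was read deeply in eosinophils, where the naive libraries lay inside the tumor range. It had 1099 to 1933 normalised reads in tumors (median 1417), against 1365 and 1559 in naive colon, with a log2 change of −0.05 and a 95% interval of −0.64 to 0.55. In macrophages it had 262 to 519.5 normalised reads in tumors (median 332), against 199 to 440.1 in naive colon (median 353), a log2 change of 0.19 ± 0.23 (SE; adjusted p = 0.638, limma). Smad7, the inhibitor that TGF-beta itself induces, had 12.4 to 33.2 normalised reads in tumor eosinophils (median 17.8), with 8 to 65 reads a library, against 18.6 and 18.1 in naive eosinophils, so that only large changes could have been seen (95% interval −0.99 to 1.04). In tumor macrophages Smad7 had 35.0, 31.8, 86.8, 81.6, 35.2 and 58.0 normalised reads, against 57.1, 73.4, 46.3, 53.4 and 42.5 in naive macrophages. Libraries 3 and 4, which also stood out for Hes1 and Fos, were the highest, and the log2 change over the groups was −0.09 ± 0.28 (SE; adjusted p = 0.867).

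Among the other genes of the TGF-beta pathway, which release the ligand, transmit its signal or answer to it, 4 rose, 5 fell and 19 did not pass among 28 tested in macrophages, with a median log2 change of −0.06. In eosinophils 1 rose, 2 fell and 25 did not pass among 28 tested, with a median of −0.09. The called share over all genes tested was 17.1% in macrophages and 4.63% in eosinophils. Thbs1, which encodes thrombospondin 1, an activator of latent TGF-beta, rose in tumor macrophages to 580.4 to 1236 normalised reads, against 64.3 to 205 in naive macrophages (2.61 ± 0.27, SE; adjusted p = 9.88e-06, limma). In eosinophils it had 1546 to 4903 normalised reads in tumors, against 2697 and 5198 in naive colon, and the effects differed by −3.34 ± 0.55 (SE; adjusted p = 0.00112, limma). Tgfbi, a TGF-beta-induced matrix protein gene, rose in tumor macrophages to 2735 to 4480 normalised reads, against 1305 to 1619 in naive macrophages (1.22 ± 0.14, SE; adjusted p = 2.52e-05, limma). It had 332 to 735 normalised reads in tumor eosinophils, against 814 and 816 in naive eosinophils, without passing (−0.61 ± 0.33, SE; adjusted p = 0.338), and its effects differed by −1.94 ± 0.33 (SE; adjusted p = 0.00142, limma). These 2 differences held in every alternative tried, with adjusted p-values of 0.000298 to 0.0323 for Thbs1 and 0.00095 to 0.0154 for Tgfbi.

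Other members of the list fell in tumor macrophages. Acvrl1, a type I receptor of the same family, fell to 94.5 to 126 normalised reads, against 252 to 312 in naive macrophages (−1.38 ± 0.13, SE; adjusted p = 4.66e-06, limma). Ltbp4, which encodes a latent TGF-beta binding protein, fell to 9.92 to 46.8 normalised reads, against 74.9 to 443 in naive macrophages (−2.50 ± 0.46, SE; adjusted p = 0.00149, limma). Its highest library, naive macrophage library 5, also had the highest sum of stromal and endothelial markers, a list that stood at 288 to 681 CPM in tumor macrophages, against 562 to 2817 CPM in naive macrophages; the part of such cells in the Ltbp4 values was not tested. Skil, a corepressor of SMAD proteins, fell by 0.54 on the log2 scale (adjusted p = 0.0028). In tumor eosinophils the related corepressor Ski fell by 1.22 (adjusted p = 0.0233) and Furin, a protease that cleaves the TGF-beta precursor, fell by 1.24 (adjusted p = 0.0474), a call that ended in 11 of the alternatives, among them the fits without any 1 of the 7 tumor libraries (adjusted p = 0.0507 to 0.475 over the 11). Itgb8, an integrin subunit that activates latent TGF-beta, rose by 3.08 (adjusted p = 0.0307), with 8 to 93 reads a library in tumor eosinophils, against 2 reads in each naive library. The Itgb8 call ended in 7 of the alternatives, among them a pseudocount of 5, no filter and limma-voom (adjusted p = 0.0536 to 0.510). The ligand gene Tgfb1 did not pass in either cell type; its 2 naive eosinophil libraries had 712 and 72.5 normalised reads, a wider gap than any between 2 tumor eosinophil libraries.

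The levels of the sensors were then compared between eosinophils and macrophages, on reads of all 20 libraries scaled together by TMM factors, called jointly scaled reads. In tumors 2 of the 8 genes were higher in eosinophils, 3 were lower and 3 did not pass, where 41.7% of 15620 genes were called by limma (18.4% higher and 23.3% lower in eosinophils). In naive colon 3 of the 8 were higher in eosinophils, 3 were lower and 2 did not pass, where 28.9% of genes were called (14% higher and 14.9% lower in eosinophils). A call is thus common in these comparisons.

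**Figure D3:**
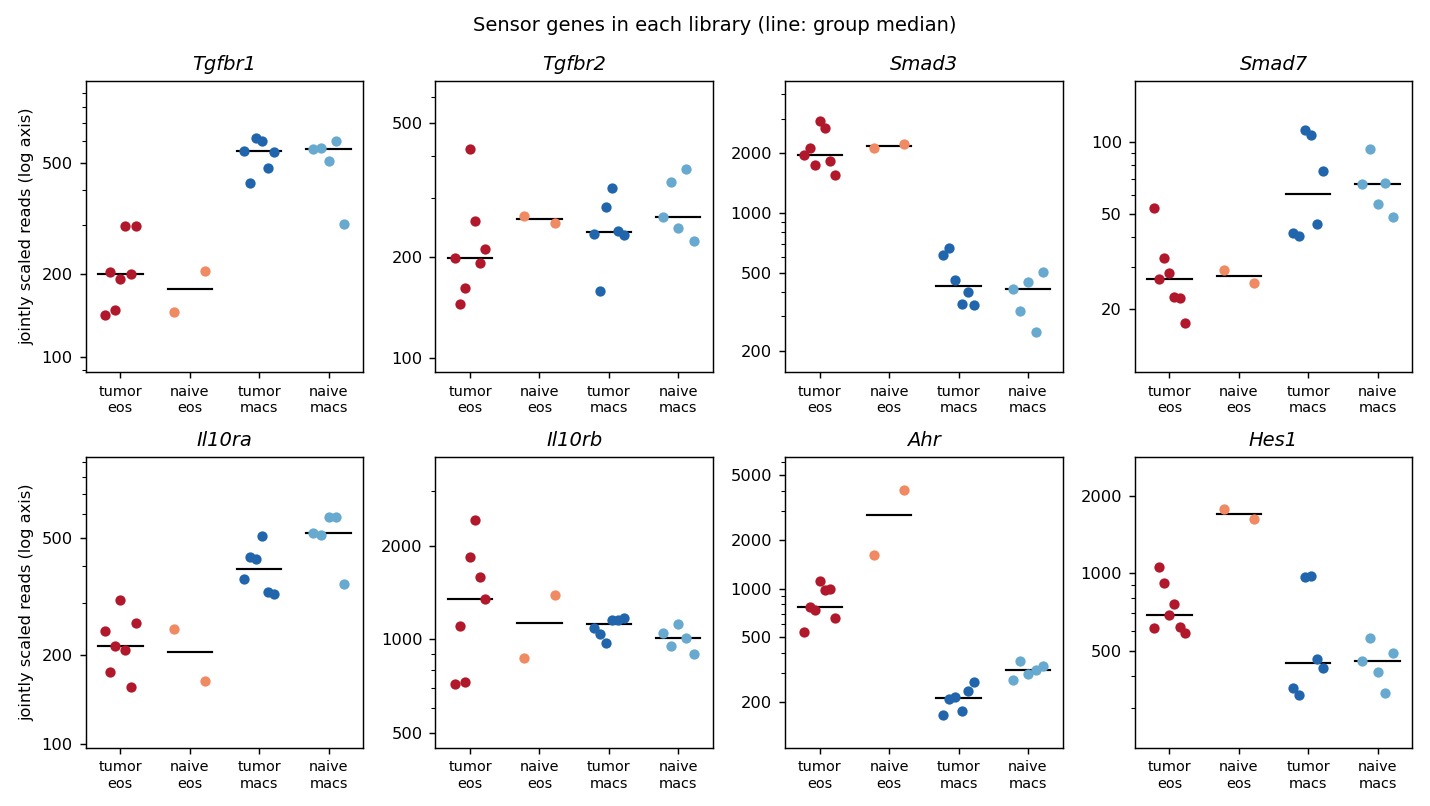
Jointly scaled reads of the 8 sensor genes in each library (log axes, a scale per gene), with a line at the group median, for tumor eosinophils (7 libraries), naive eosinophils (2), tumor macrophages (6) and naive macrophages (5). Ahr and Smad3 lie higher in every eosinophil library than in any macrophage library, Hes1 is highest in the 2 naive eosinophil libraries, and 2 tumor macrophage libraries stand apart for Hes1.

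Ahr and Smad3 were eosinophil-high. Ahr averaged 827 ± 206 jointly scaled reads in tumor eosinophils (SD, n = 7), against 210 ± 35.7 in tumor macrophages (SD, n = 6), a log2 difference of 1.95 ± 0.20 (SE; adjusted p = 5.56e-08, limma). In naive colon it had 1618 and 4065 in eosinophils, against 272 to 358 in macrophages, a log2 difference of 3.03 ± 0.30 (SE; adjusted p = 5.22e-08, limma). Ahr levels were highest in naive eosinophils, then tumor eosinophils, then naive macrophages, and lowest in tumor macrophages, and no 2 neighbours in that order overlapped. Smad3 averaged 2124 ± 502 jointly scaled reads in tumor eosinophils (SD, n = 7), against 470 ± 137 in tumor macrophages (SD, n = 6; log2 difference 2.19 ± 0.20, SE; adjusted p = 7.72e-09, limma). In naive colon it had 2139 and 2226 in eosinophils, against 251 to 505 in macrophages (2.53 ± 0.30, SE; adjusted p = 6.77e-07, limma). The tumor and naive libraries of each cell type overlapped for Smad3, so that the levels fell into an eosinophil and a macrophage set.

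Hes1 was eosinophil-high in naive colon. It had 1774 and 1629 jointly scaled reads in naive eosinophils, against 343 to 562 in naive macrophages (log2 difference 1.93 ± 0.36, SE; adjusted p = 0.000205, limma). In tumors it had 588 to 1054 in eosinophils, against 337 to 979 in macrophages, and did not pass (0.46 ± 0.24, SE; adjusted p = 0.123), although it did without tumor macrophage library 3 or 4 (0.63 in both, adjusted p = 0.0329 and 0.0309). The order of its mean levels was naive eosinophils, tumor eosinophils, tumor macrophages and naive macrophages. Tumor macrophages overlapped both tumor eosinophils and naive macrophages, which did not overlap each other.

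Tgfbr1, Il10ra and Smad7 were macrophage-high. Tgfbr1 averaged 211 ± 63.7 jointly scaled reads in tumor eosinophils (SD, n = 7), against 539 ± 73.8 in tumor macrophages (SD, n = 6; log2 difference −1.39 ± 0.20, SE; adjusted p = 7.49e-06, limma). In naive colon it had 146 and 205 in eosinophils, against 303 to 603 in macrophages (−1.51 ± 0.30, SE; adjusted p = 0.000487). Il10ra averaged 223 ± 51.1 jointly scaled reads in tumor eosinophils (SD, n = 7), against 395 ± 71.1 in tumor macrophages (SD, n = 6), a log2 difference of −0.84 ± 0.18 (SE; adjusted p = 0.000782, limma). In naive colon it had 245 and 164 in eosinophils, against 348 to 586 in macrophages (−1.32 ± 0.27, SE; adjusted p = 0.000712). For both genes the eosinophil libraries lay below all macrophage libraries of the same condition, while tumor and naive libraries overlapped within each cell type.

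Smad7 averaged 29.0 ± 11.6 jointly scaled reads in tumor eosinophils (SD, n = 7), against 70.3 ± 32.8 in tumor macrophages (SD, n = 6; −1.20 ± 0.30, SE; adjusted p = 0.00261, limma). In naive colon the log2 difference was of the same size, −1.21 ± 0.45 (SE; adjusted p = 0.0462), and was lost without the filter (adjusted p = 0.0712), with the replicate block (0.0958), without either naive eosinophil library (0.115 and 0.204) and without naive macrophage library 1, 2, 3 or 4 (0.0534 to 0.0962). Tgfbr2 and Il10rb did not differ beyond their spread in either condition. Their log2 differences had 95% intervals of −0.61 to 0.29 and −0.24 to 0.69 in tumors, and of −0.80 to 0.55 and −0.57 to 0.84 in naive colon. The cell types thus differed in the type I receptor for TGF-beta and the ligand-binding chain of the IL-10 receptor, with no detected difference in Tgfbr2 and Il10rb at this depth.

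**Figure D4:**
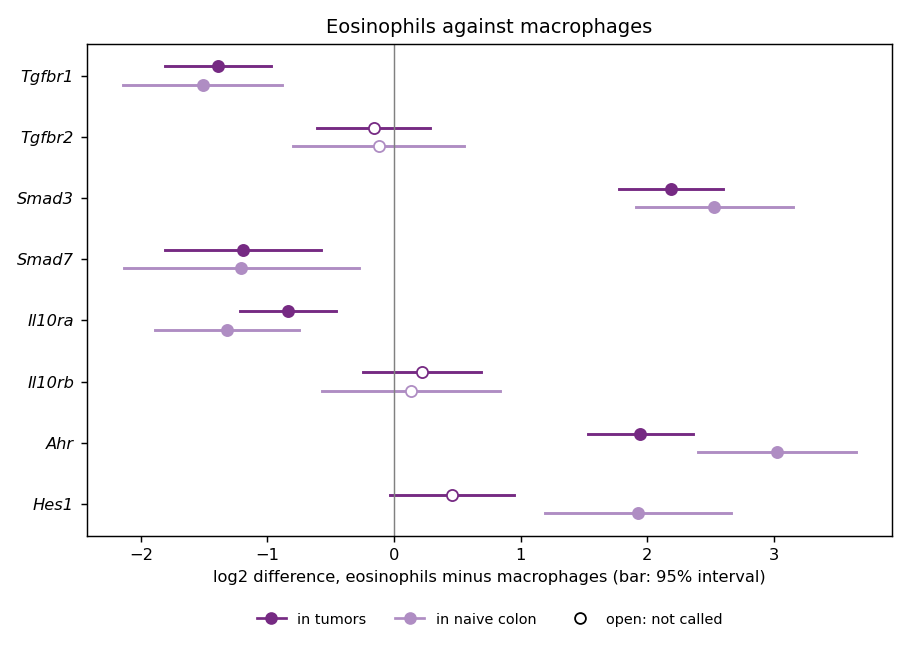
Log2 difference of each sensor gene, eosinophils minus macrophages, on jointly scaled reads in tumors (dark, 7 against 6 libraries) and in naive colon (light, 2 against 5 libraries); points are limma estimates, bars are 95% intervals, and open points did not pass an adjusted p of 0.05. Smad3 and Ahr lie right of 0 and Tgfbr1, Smad7 and Il10ra left of 0 in both conditions, and Hes1 is open in tumors.

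The genes whose pattern over the 20 libraries was nearest to each sensor were taken from 13396 genes by the root mean square difference of log2 jointly scaled reads, each gene centred on its own mean. This is a description, in which the libraries' split into 2 cell types weighs most. Smad3 was nearest to Ube2h (0.28 log2 units, where Smad3 itself varied by 1.21), a ubiquitin-conjugating enzyme gene, and to Prr13. Ahr was nearest to Clint1 and Sun2 (both 0.30, where Ahr itself varied by 1.19). Hes1 was nearest to Naip5 (0.34) and Rsrp1 (0.36), with its own variation at 0.68. Tgfbr1 was nearest to Cd300c2 (0.29) and Gnpda1 (0.30), Il10ra to Kctd2 (0.24) and Dctn5 (0.27), Smad7 to Rif1 (0.35) and Hsp90ab1 (0.38). Tgfbr2 was nearest to BC004004 (0.28) and Eif4g3 (0.29), where Tgfbr2 itself varied by 0.38. Il10rb was nearest to Spag9 (0.24) and Nadk (0.26), where Il10rb itself varied by 0.41.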

How the data were processed

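Trizol RNA went into CEL-Seq libraries, with 3 technical replicates a sample that differed in their primer pools, per the labels' protocols, which do not say how these were combined or whether molecular barcodes were collapsed. Tools named in the submitters' processing notes are TopHat2 2.1.0 and Bowtie2 2.2.6, HTSeq 0.6.1, DESeq2 1.14.1, FastQC 0.11.5 and Trim Galore, and the build is GRCm38.p5. The authors deposited a table per cell type of normalised signal, that is read counts divided by a size factor per library. All 374526 values above 0 were whole multiples of 1 read's worth within 0.1 read, so the reads and depth were recovered.

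Within a cell type, log2(value + 1) was fitted with limma 3.58.1 (R 4.3.3; trend, two-sided) over genes at 10 or more in at least 2 eosinophil or 5 macrophage libraries, tumor minus naive. Since the authors scaled each table on its own, cell types were compared on recovered reads scaled by TMM (edgeR 4.0.16). Adjusted p-values are Benjamini-Hochberg over all genes tested; under 0.05 is called. Fold changes on this scale understate the change of low genes. Settings were checked on simulated counts with the same spread for every gene and no batches, close pairs of libraries or differences in cell content. That check does not cover such features of the data. Alternatives were a pseudocount of 5, no filter, limma-voom, edgeR, DESeq2 1.42.0, median-of-ratios scaling, the replicate number as a block, and each library left out. Bare numbers named 27 entries (at most 0.132% of reads). Every gene of the 8 was named whatever its test; of each pathway list, up to 5 called genes per cell type with the smallest p were named, plus Tgfb1, Il10, Arnt, Ahrr, Cyp1b1, Notch1 and Notch2. 1 gene of the IL-10 list is not reported here, and the list's counts leave it out. The genes and lists were chosen with earlier results of these data known. Coordinates are those of GENCODE M21. RefSeq promoters matched 3 of the 8 genes (Tgfbr1, Tgfbr2 and Smad3).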

Additional observations from a re-analysis of the deposited data

Results flagged for a closer look

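Of 120 groups of a gene's libraries examined for a library far from the others, 12 had one. Naive eosinophils, with 2 libraries, were not examined. Chance flags about 1 in 20 groups where values are independent and normally spread. Here the values were not on a log scale, some lay near 0, and the same libraries recurred over the genes. That rate therefore need not hold. Of the 12 flagged, 2 touch the sensor genes themselves. Tgfbr1 was low in naive macrophage library 5, with 264.05 normalised reads, and Tgfbr2 was high in tumor eosinophil library 4, with 278.18. In that tumor eosinophil library the Notch partner Rbpj was also high, at 574.39, and eosinophil markers summed to 9675 CPM, the highest of all libraries. In naive macrophage library 5, Ltbp4 (443.11) and Itgb8 (33.39) were high. Ahrr stood out in tumor eosinophil library 6 (189.23), Cyp2s1 in tumor eosinophil library 3 (21.37), Cyp1b1 in tumor eosinophil library 5 (5.83) and tumor macrophage library 3 (2.86), Ido1 in tumor macrophage library 5 (114.23), Cd163 in naive macrophage library 4 (345.18) and Src in naive macrophage library 1 (114.13).

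The tumor effect differed between the cell types for 10 of the named pathway genes by limma, as the eosinophil effect minus the macrophage effect on the log2 scale. It was lower in eosinophils for Thbs1 (−3.34), Il1rn (−2.45), Tgfbi (−1.94), Tiparp (−1.88), Lpcat2 (−1.85), Maml1 (−1.68) and Furin (−1.31). It was higher in eosinophils for Cd163 (7.81), Il10 (3.09) and Acvrl1 (1.599); Cd163 had 0 to 4 reads a library in eosinophils and Il10 0 to 22, so that both values depend on the pseudocount. Without naive eosinophil library 2, 7 of the 10 no longer passed (adjusted p = 0.124 to 0.420), and Thbs1, Tgfbi and Cd163 still did. Other alternatives also ended 5 of the 10: Tiparp in 10 further ones (adjusted p = 0.058 to 0.0873), Furin in 8 (0.0545 to 0.137), Acvrl1 in 6 (0.0519 to 0.0597), Il10 in 2 (no filter and edgeR, 0.0511 and 0.0562) and Maml1 in 1, the replicate block (0.0711).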

How the results depend on the processing

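Over the 8 sensor genes and all comparisons, 196 values kept their direction and side of the threshold under the settings other than leaving a library out. Under these settings 7 lost a call, 3 gained one and 10 changed sign. With a library left out the counts were 422, 16, 8 and 34. Every value that changed sign was uncalled. The cause of these changes was not tested.

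In eosinophils 0 sensors were called without the filter, 0 with limma-voom, and 1 (Ahr) with the replicate block, against 2; leaving out libraries gave 0 to 2. All genes called there numbered 197 with limma-voom, 1386 with DESeq2 and 1130 with the block, against 601, and 90 to 940 with a library left out. In macrophages 2 sensors were called with DESeq2, against 1, and 1 to 2 with a library left out; 1233 genes were called with the block, against 1972. For the difference of effects 1 sensor was called with edgeR and 1 with the block, against 0, and 0 to 1 with a library left out; 403 genes were called without the filter and 401 with the block, against 610, and 165 to 1686 with a library left out. Between cell types in naive colon 2847 genes were called with the block, against 4512, and 3000 to 4483 with a library left out.

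The block assumes that equal replicate numbers pair the libraries. Libraries whose number the other group lacks carry no weight in its effect. In eosinophils its effect rests on tumor and naive libraries 1 and 2, and tumor libraries 3 to 7 do not count. Deviations of same-numbered libraries from their group means correlated at 0.124 and 0.128 in 2 eosinophil pairs, the highest value for each naive library. With only 2 naive eosinophil libraries, each correlation has a mirror image of opposite sign, so these values cannot decide on pairing. In 5 macrophage pairs the correlations were −0.31 to 0.055, and libraries did not correlate best with their own number. The numbers were not taken as pairs, which in eosinophils is an assumption. With the block the log2 change in eosinophils was −0.080 for Tgfbr1, −0.013 for Il10ra, −0.36 for Il10rb and −0.33 for Il1rn, in macrophages 0.027 for Furin, and for the difference −0.13 for Tgfbr1, −0.41 for Il10rb, 0.61 for Hes6 and 0.77 for Src. With edgeR it was 0.037 for Smad3 and 0.0043 for Arnt in eosinophils, −0.018 for Tgfbr1 in macrophages (−0.017 with DESeq2), and for the difference 0.080 for Tgfbr2, 0.047 for Ido1 and −0.0075 for Tgfb1. Median-of-ratios scaling gave differences of 0.098 for Tgfbr2, 0.011 for Skil and 0.11 for Src.

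With a library left out, the change in eosinophils ran from −0.053 to 0.56 for Tgfbr1, −0.14 to 0.050 for Smad3, −0.11 to 0.12 for Smad7, −0.079 to 0.37 for Il10ra, −0.16 to 0.64 for Il10rb, −0.81 to 0.19 for Arnt, −0.32 to 0.76 for Il1rn, −2.68 to 0.48 for Ltbp4, −1.24 to 0.12 for Skil and −0.78 to 2.49 for Tgfb1. In macrophages it ran from −0.13 to 0.093 for Tgfbr1, −0.24 to 0.041 for Smad7, −0.13 to 0.057 for Furin and −0.050 to 0.21 for Socs3. The difference ran from −0.12 to 0.36 for Tgfbr1, −0.20 to 0.053 for Tgfbr2, −0.14 to 0.17 for Smad7, −0.25 to 0.42 for Il10rb, −0.36 to 2.95 for Ltbp4, −0.74 to 0.48 for Skil, −1.10 to 2.32 for Tgfb1, −0.99 to 0.32 for Etv3, −1.33 to 0.15 for Ido1, −0.47 to 0.038 for Notch2 and −1.33 to 1.28 for Src, and Il10rb in naive colon, eosinophils minus macrophages, from −0.20 to 0.47.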
